A study of Rattus norvegicus with 10 samples.

Results

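The genes described here are 33 collagen chains and collagen-processing proteins, taken by name as those whose probe sets the platform annotation gave exactly 1 gene symbol. All 33 had at least 1 such probe set, among 14217 genes that the array names by 1 symbol. They comprise 22 collagen chains and 11 enzymes, chaperones and cofactors. The tissue was mammary tumour of female Sprague-Dawley rats, induced in both groups alike by DMBA, a hydrocarbon carcinogen given once by mouth at 100 mg/kg. The basal group is 5 biopsies of untreated tumours taken at 12 weeks of age, at a volume of 2 cm3. The final group is the same 5 tumours at sacrifice, at 19 weeks, after hydroxytyrosol, a phenol of olive oil, by gavage (0.5 mg/kg on 5 days a week over 6 weeks). No tumours left untreated to the later age were analysed here, so treatment, age and tumour growth cannot be told apart. The labels name a needle biopsy against total tumour while the design text names Trucut pieces for both, so the way of sampling cannot be told apart from the groups either. All 5 tumours were chosen for Bloom-Richardson grade II, and the labels do not say whether each came from a different rat.

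Collagen chains fold in the endoplasmic reticulum after prolines and lysines have been hydroxylated by the P4h and Plod enzymes, and the chaperone Serpinh1 (HSP47) holds the new triple helix. After secretion Bmp1 removes the C-propeptide of the fibrillar chains with the help of Pcolce, and the Lox oxidases cross-link the fibrils. In mammary tumours fibroblasts are the main source of fibrillar collagen, while type IV collagen forms the basement membrane around epithelium and vessels.

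Values are signals of single probe sets on a log2 scale, normalised across arrays, and a difference of 1 is a doubling of signal. Each gene is given by its brightest probe set over the 10 arrays, and signals of different genes are not compared as levels. Of the 33 genes, 32 passed the filter on dim signal (a mean of at least 5.14), with Col9a1 left out. The mean of the BioB spike-in probe sets, the faintest of the array's spike-in controls, was 8.04. As a check of the tissue, Epcam, an epithelial adhesion protein, lay between 12.58 and 13.06 over the 10 arrays. Array medians lay between 7.67 and 7.80, and the housekeeping control GAPDH at 12.29 in the 45D3 biopsy and between 12.90 and 13.32 in the other 9 arrays. The 3′ minus 5′ signal of the hexokinase control, which grows with RNA degradation, was 2.36 in the 45D3 biopsy and 2.03 in the 67D3 biopsy and at most 1.29 in the other 8 arrays. Over all probe sets, the 45D3 biopsy and final sample were the only pair whose deviations from the group means correlated below 0 (-0.16, across probe sets).

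Of the 32 tested collagen genes 25 had a higher mean in final samples, 20 of 21 chains and 5 of 11 processing genes, where 47.9% of all 10839 tested genes did. None passed limma's adjusted p threshold of 0.05 (0 of all genes, 0%), the smallest adjusted p among the 32 being 0.592. At an unadjusted p under 0.05, 2 were higher (2.78% of all genes were) and 0 were lower (4.36% of all genes were). Higher signal in all 5 final samples was seen for 1 of the 32 (3.52% of all genes) and lower signal in all 5 for 0 (5.27% of all genes). The ranges of the basal and final groups overlapped for every one of the 33 genes. Overlap was not counted over all genes, so it is not read as a trait of these genes. The median difference over the 32 genes was 0.23, against -0.01 over all genes tested. Of the 8 fibrillar chains 5 (Col1a1, Col1a2, Col3a1, Col5a1 and Col5a2) were higher in the final samples of 66D2, 67D3, 49I1 and 51I1 and lower in that of 45D3. So were 2 of the 3 type VI chains (Col6a1 and Col6a2), and Col4a2, Col8a1, Col16a1, Pcolce, Lox and Loxl1. Type IV chains were higher on average and had a median difference of 0.31 in 45D3, though Col4a2 was lower there (-0.13). The intracellular enzymes stayed near their biopsy signal on average.

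**Figure D1:**
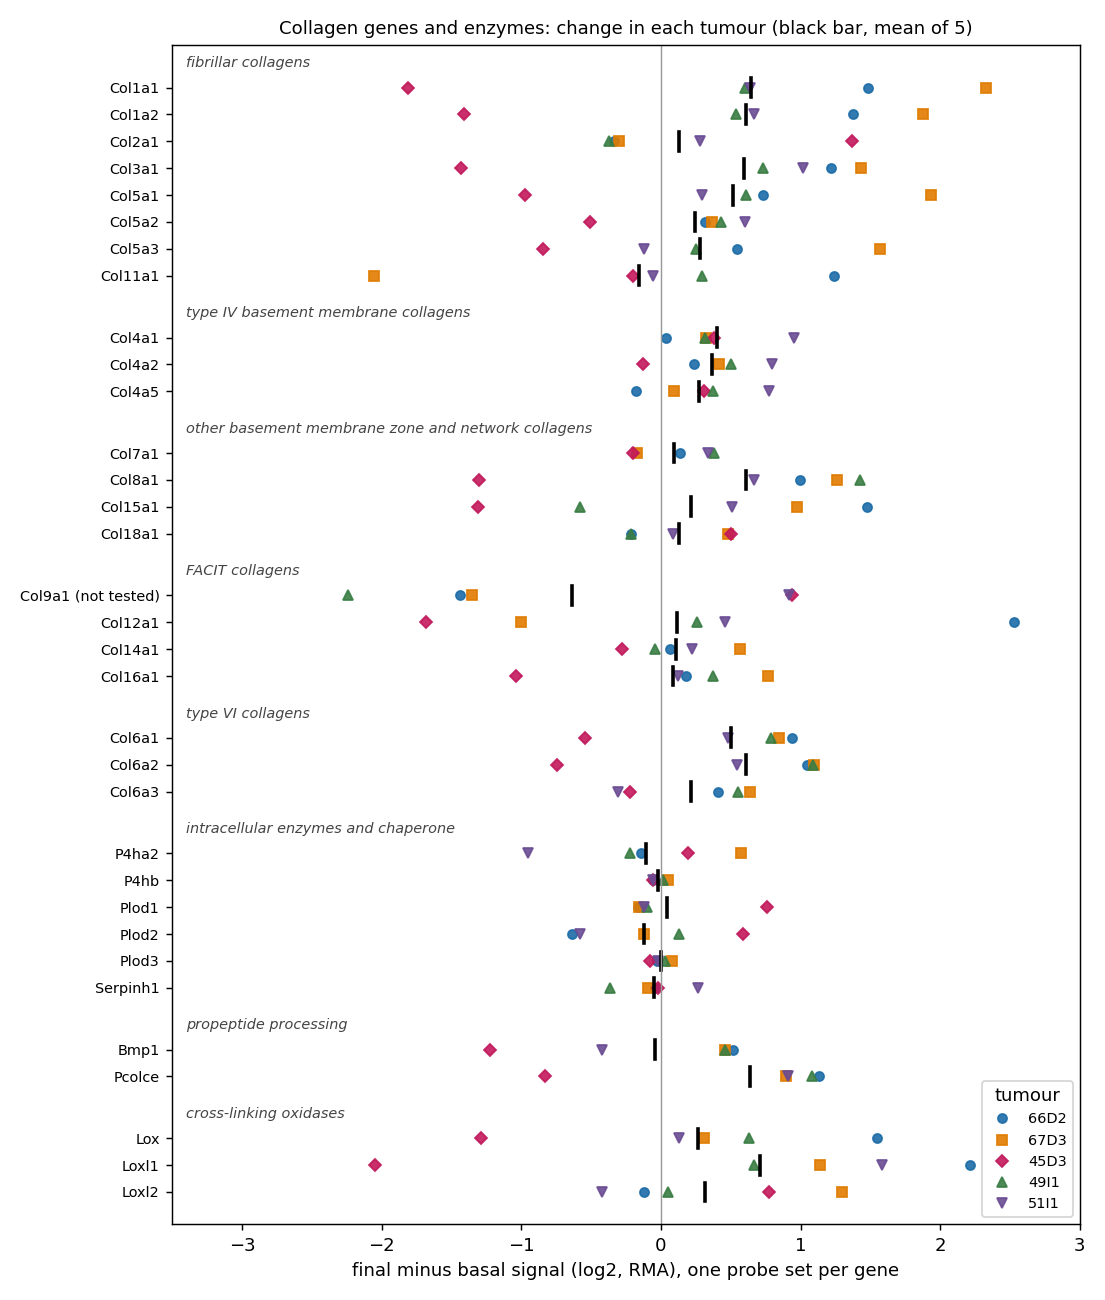
Final minus basal log2 signal of the 33 genes by class, with a symbol for each of the 5 tumours and a black bar at the mean. For Col1a1 the tumours 66D2, 67D3, 49I1 and 51I1 lie between 0.60 and 2.33 and 45D3 at -1.81, while the tumours lie between -0.06 and 0.05 for P4hb.

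The pattern of the collagen genes turned on tumour 45D3. Its biopsy array had the highest hexokinase difference (2.36) and the lowest GAPDH signal (12.29) of the 10 arrays. Of the 5 tumours, 45D3 alone had a biopsy that did not correlate best with its own final sample. The hexokinase difference was 2.03 in the 67D3 biopsy, and in the 45D3 final sample it was 0.89, the lowest of the 10 arrays. The part of these array values in the pattern was not tested beyond the hexokinase covariate given with the marker lists. In 45D3, 8 of the 32 genes were higher in the final sample (25%), against 54.2% of all genes tested, and the median difference was -0.39. In 66D2, 67D3, 49I1 and 51I1 between 22 and 25 of the 32 were higher, with medians of 0.36, 0.52, 0.37 and 0.29. Of all genes tested 53.8%, 47.2%, 42.7% and 40.8% were higher in these tumours. By a pattern set after the values were seen, 14 of the 32 genes were higher in all of those tumours (11.9% of all genes), and 13 of the 32 genes were higher in those tumours and lower in 45D3, a pattern of 8.34% of all genes. The 45D3 final sample had the lowest signal of the final arrays for 23 of the 32 genes, against 16% of all genes. The 67D3 final sample had the highest signal for 14 (24.2% of all genes). In the biopsies the order was another: the lowest Col1a1, Col1a2, Col3a1, Col6a1, Col6a2, Pcolce, Lox and Loxl1 signals were those of 66D2. That biopsy was lowest for 13 of the 32 genes and for 34% of all genes, so its low place is not particular to the collagen genes. The 45D3 biopsy was lowest for P4ha2, P4hb, Plod1, Plod2, Plod3, Loxl2 and Col6a3 among others. Without 45D3, 14 of the 32 genes were higher at an unadjusted p under 0.05 (limma, 8.5% of all genes). In that fit 0 were lower at that p (10.7% of all genes), and 0 passed the adjusted threshold. Tumour 45D3 was picked out from these same values, so the count describes the pattern and gives it no support.

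Among the fibrillar collagens, which build the load-bearing fibrils of connective tissue, Col1a1 encodes the major chain of type I collagen. Its signal in biopsies of 66D2, 67D3, 45D3, 49I1 and 51I1, the order kept below, was 10.34, 10.99, 11.17, 12.03 and 11.56. In the final samples it was 11.82, 13.32, 9.36, 12.63 and 12.20. The groups overlapped, with 67D3 the highest and 45D3 the lowest of all 10 arrays. The mean difference was 0.65 (SE 0.54; 1.57-fold; higher in 4 of 5 tumours; limma adjusted p = 0.775), and 1.26 without 45D3.

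Col1a2, the partner chain of type I collagen, was 11.17, 11.50, 11.84, 12.52 and 12.22 in biopsies. Its final signal was 12.55, 13.37, 10.43, 13.06 and 12.88, so that every final sample but that of 45D3 lay above all the biopsies. Its mean difference was 0.61 (SE 0.44; 1.52-fold; limma adjusted p = 0.740), and 1.11 without 45D3. The change of Col1a1 minus that of Col1a2 was at most 0.45 in size in any tumour, both chains moving in the same direction in 5 of 5. In Col1a1 a second probe set differed by 0.72 on average and in Col1a2 by 0.68, with the same sign as the brightest in every tumour.

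The 250 bases before the annotated start of Col1a2 (GRCr8, chr4:33518307-33518556, plus strand, RefSeq) are shown because Col1a2 stood with Col1a1, Col3a1, Loxl1 and Pcolce in the pattern above, and the capitals mark matches, on either strand, to any of the motifs searched. These were the TATA box with the letters TATAAA, the CCAAT box with the letters CCAAT, and the GC box with the letters GGGCGG, and no matches overlap here.
Col1a2: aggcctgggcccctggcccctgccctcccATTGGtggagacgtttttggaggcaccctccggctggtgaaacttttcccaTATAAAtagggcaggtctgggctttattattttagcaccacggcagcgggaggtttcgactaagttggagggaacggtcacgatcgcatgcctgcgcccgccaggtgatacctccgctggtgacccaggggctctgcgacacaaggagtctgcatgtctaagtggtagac
The TATAAA match begins 170 bases before the annotated start and the CCAAT match, on the opposite strand, 221 bases before it. Of the 24 chain and processing genes in the RefSeq promoter table, Col1a2 alone held TATAAA in these 250 bases. Of all 33469 promoters 12.9% did. Col1a1, Col2a1, Col3a1, Col6a2, Col12a1, Col14a1, Bmp1, Lox and Loxl2 had no entry there and were not searched. A match describes letters and is not shown to be a site.

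Col3a1, the chain of type III collagen, which shares fibrils with type I in soft tissue, was 11.53, 12.29, 12.35, 12.73 and 12.41 in biopsies. In final samples it was 12.74, 13.72, 10.92, 13.46 and 13.43. All final samples but that of 45D3 again lay above all the biopsies, though that of 66D2 stood barely above the 49I1 biopsy. On average Col3a1 differed by 0.59 (SE 0.41; 1.51-fold; limma adjusted p = 0.731), and the difference in 45D3 (-1.43) stood well apart from the range of 0.73 to 1.43 in the other tumours. Col3a1 had the smallest p of the fibrillar class.

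The type V chains, which nucleate type I fibrils, had the same sign as type I in each tumour, apart from Col5a3 in 51I1. Col5a1 differed by 0.73, 1.93, -0.97, 0.61 and 0.30, a mean of 0.52 (SE 0.37). Col5a2 differed by 0.31, 0.37, -0.51, 0.43 and 0.60, a mean of 0.24 (SE 0.17). Col5a3 differed by 0.55, 1.57, -0.85, 0.25 and -0.12, a mean of 0.28 (SE 0.32). Tumour 67D3 showed the largest difference for Col5a1 and Col5a3 but not for Col5a2. The change of Col5a1 exceeded that of Col5a2 by 1.57 in 67D3.

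The cartilage-type fibrillar chains did not follow the pattern. Col11a1, a chain of type XI collagen, differed by 1.24, -2.05, -0.20, 0.29 and -0.06, and its mean difference was -0.16 (SE 0.42). Col2a1, the type II chain of cartilage, was measured by probe sets that disagreed. Its brightest probe set was higher in 45D3 by 1.37 and in 51I1 by 0.28 and lower in the other tumours, and 3 of the 5 tumours had opposite signs between it and the second tested probe set. Its mean difference was 0.13 (SE 0.27), and 0 of 8 fibrillar chains passed the adjusted threshold.

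As a class the fibrillar chains had a median difference of 0.40, with per-tumour medians of 0.97, 1.50, -0.91, 0.48 and 0.45. The median SD between tumours was 0.586 in biopsies and 1.08 in final samples, where all genes tested had 0.248 and 0.240. Without 45D3 these values for the fibrillar class were 0.567 and 0.425, so the wider spread of the final samples rested on that tumour.

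**Figure D2:**
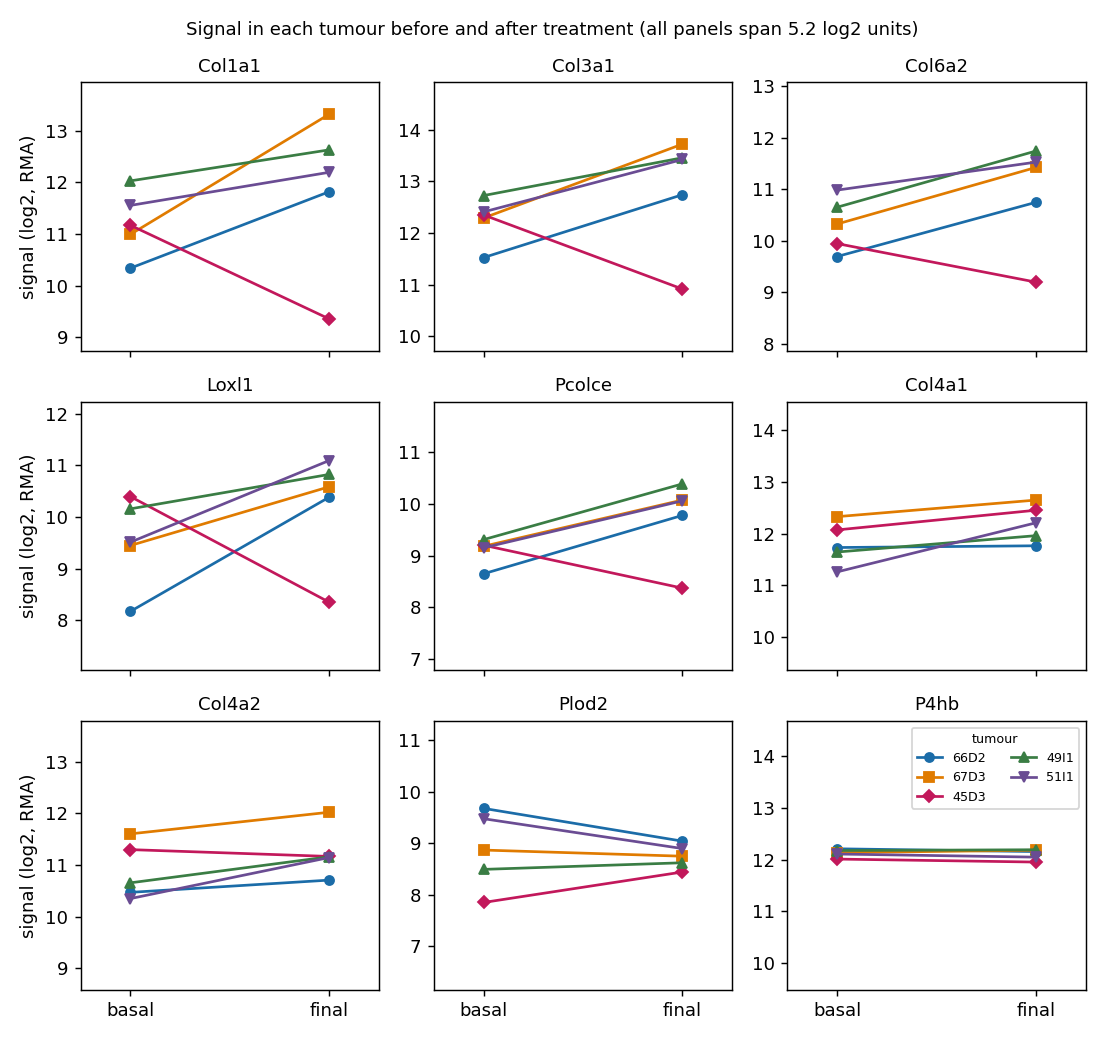
Log2 signal of 9 genes in the biopsy and final sample of each tumour, each tumour joined by a line, with every panel spanning the same range of signal. The 45D3 lines of Col1a1, Col3a1, Col6a2, Loxl1 and Pcolce run downward while those of the other tumours run upward, the 5 lines of Col4a1 run level or upward, and those of P4hb are flat.

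Type VI collagen forms beaded filaments around cells, built from the Col6a1, Col6a2 and Col6a3 chains. Col6a1 was 10.35, 10.79, 10.53, 11.33 and 11.58 in biopsies and 11.28, 11.63, 9.99, 12.13 and 12.06 in final samples. The groups overlapped, and 45D3 was the sole tumour with a lower final sample. On average Col6a1 differed by 0.50 (SE 0.23; 1.42-fold; limma adjusted p = 0.639), and 0.76 without 45D3.

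Col6a2 was 9.70, 10.32, 9.95, 10.65 and 10.98 in biopsies. Its final signal was 10.75, 11.42, 9.20, 11.74 and 11.52, with 45D3 again the lowest of all arrays. On average Col6a2 differed by 0.61 (SE 0.29; 1.52-fold; limma adjusted p = 0.650), and it moved with Col6a1 in every tumour, their changes differing by at most 0.30 in size.

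Col6a3, the long chain that completes the filament, was 10.02, 10.31, 8.96, 10.38 and 11.01 in biopsies and 10.43, 10.95, 8.74, 10.93 and 10.70 in final samples. Here 2 tumours, 45D3 and 51I1, had a lower final sample, and the 45D3 signal stood far below the others at both times. The mean difference was 0.21 (SE 0.17; limma adjusted p = 0.772). A second, dimmer probe set of Col6a3, with a mean of 6.35 that lay below BioB, was higher in 5 of 5 tumours with a mean difference of 0.77 (limma adjusted p = 0.556), so the probe sets disagreed in 2 tumours. The class median was 0.50, with per-tumour medians of 0.94, 0.84, -0.54, 0.79 and 0.48.

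Type IV collagen is the network-forming collagen of basement membranes. Col4a1 was 11.73, 12.33, 12.07, 11.64 and 11.26 in biopsies. Its final signal was 11.76, 12.65, 12.45, 11.96 and 12.21, higher in 5 of 5 tumours by between 0.03 (66D2) and 0.95 (51I1). It was the single tested collagen gene higher in all 5 tumours, as were 3.52% of all genes tested. The groups overlapped, the mean difference was 0.40 (SE 0.14; 1.32-fold), and the limma p was 0.0273 unadjusted and 0.592 adjusted. After the arrays were centred on their medians the smallest of these differences, that of 66D2, no longer lay above 0, and a second Col4a1 probe set was also lower there, by 0.01.

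Col4a2, the partner of Col4a1 in the main type IV molecule, was 10.47, 11.60, 11.30, 10.65 and 10.35 in biopsies and 10.71, 12.02, 11.17, 11.16 and 11.14 in final samples. It was higher in 4 of 5 tumours and lower by a small amount (-0.13) in 45D3. The mean difference was 0.36 (SE 0.14; 1.29-fold), and the limma p was 0.0412 unadjusted and 0.611 adjusted. Col4a5, a chain of a more restricted type IV molecule, differed by -0.18, 0.09, 0.31, 0.37 and 0.77, a mean of 0.27 (SE 0.15; limma adjusted p = 0.664).

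Col4a1 and Col4a2 lie head to head on chromosome 16 and share the short stretch between their start sites. These 76 bases (GRCr8, chr16:84885521-84885596, given on the strand of Col4a1, RefSeq) are shown because the paired genes had the smallest p values of the 32. Capitals mark a match to GGGCGG on the opposite strand.
Col4a1 and Col4a2: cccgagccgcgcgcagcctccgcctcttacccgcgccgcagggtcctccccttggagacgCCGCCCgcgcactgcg
G and C make up 78.9% of this stretch, against 58.4% of the Col1a2 stretch printed above. GGGCGG was present, on either strand, in the 250 bases before the start of 17 of the 24 collagen genes in the table (70.8%) and of 30.5% of all promoters, and CCAAT in 6 of 24 (25%) and 34%.

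The changes of Col4a1 and Col4a2 did not match in every tumour, that of Col4a1 exceeding that of Col4a2 by 0.51 in 45D3 and lying within 0.20 of it in the other tumours. The type IV median was 0.36, with per-tumour medians of 0.03, 0.32, 0.31, 0.37 and 0.80. In 45D3, where the fibrillar median was -0.91, the type IV median was therefore above 0, and in 66D2, where the fibrillar median was 0.97, it was near 0. The highest type IV median was in 51I1. Whether the classes differ was not tested, since these medians rest on chosen genes.

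The other collagens of the basement membrane zone and of networks were mixed. Col8a1, a short-chain network collagen of vessel walls, had the smallest p of this class. It was 8.35, 8.81, 8.76, 8.24 and 8.74 in biopsies and 9.35, 10.06, 7.46, 9.67 and 9.41 in final samples. The final signal of each tumour but 45D3 lay above all the biopsies and that of 45D3 below them, with a mean difference of 0.61 (SE 0.39; 1.53-fold; limma adjusted p = 0.711). Col15a1, a basement membrane zone collagen, differed by 1.48, 0.97, -1.31, -0.58 and 0.51, a mean of 0.21 (SE 0.40). Col18a1, the precursor of endostatin, went the other way in 45D3, with differences of -0.21, 0.48, 0.50, -0.21 and 0.08. Col7a1, the anchoring fibril collagen, differed by between -0.20 and 0.38, with a mean of 0.10 (SE 0.13).

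FACIT collagens sit on the surface of fibrils and are interrupted along their helix. Col14a1 had the smallest p among them. Its signal was 11.80, 11.18, 11.59, 11.84 and 11.68 in biopsies and 11.86, 11.74, 11.31, 11.80 and 11.90 in final samples. The final samples other than that of 45D3 lay between 11.74 and 11.90, and the mean difference was 0.11 (SE 0.14; limma adjusted p = 0.852). Col16a1 was higher in 4 tumours by between 0.13 and 0.77 and lower in 45D3 (-1.04). Col12a1 was widely divided between tumours, with a difference of 2.53 in 66D2 and of -1.69 in 45D3, and with a lower final sample in 67D3 as well.

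Col9a1, a cartilage FACIT, had a mean signal of 4.94, below the dim cutoff, and was not tested. Its biopsy signals were 7.20, 4.41, 3.75, 7.14 and 3.82 and its final signals 5.76, 3.05, 4.68, 4.89 and 4.74. The 66D2 and 49I1 biopsies thus stood above the cutoff and the 66D2 final sample alone did so in the final group. The median of the 3 tested FACIT chains was 0.11, with 0.18, 0.56, -1.04, 0.26 and 0.22 by tumour, the value of 45D3 standing apart from the others.

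The enzymes that act inside the cell did not share in the higher chain signals. P4hb, the protein disulphide isomerase that is also a subunit of prolyl 4-hydroxylase, lay between 12.01 and 12.21 in biopsies and between 11.95 and 12.19 in final samples. Its differences ran from -0.06 to 0.05, with a mean of -0.02 (SE 0.08; limma adjusted p = 0.956). P4ha2, a catalytic subunit of the same enzyme, was 8.79, 8.83, 8.05, 8.62 and 9.28 in biopsies and 8.64, 9.41, 8.24, 8.40 and 8.32 in final samples. It was higher in 67D3 and 45D3 and lower in the others, most in 51I1 (-0.95), with a mean of -0.11 (SE 0.21; limma adjusted p = 0.909). A second P4ha2 probe set with a mean of 5.33, close to the dim cutoff, had a mean difference of -0.34, with lower final signal in all tumours but 45D3 (limma adjusted p = 0.584).

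Among the lysyl hydroxylases, Plod2, which prepares the telopeptide lysines for cross-links, was 9.67, 8.87, 7.85, 8.49 and 9.47 in biopsies. Its final signal was 9.04, 8.75, 8.44, 8.62 and 8.90, a narrower range. The biopsies with the highest signal, 66D2 and 51I1, had the most negative differences (-0.63 and -0.58), and the lowest biopsy, 45D3, the most positive (0.59). The biopsy signal is subtracted in each difference, so such an order arises in part by construction. The mean difference of Plod2 was -0.12 (SE 0.19, limma adjusted p = 0.881). Plod1 differed by between -0.16 and -0.10 in 66D2, 67D3, 49I1 and 51I1 and was higher in 45D3 by 0.76, the reverse of the fibrillar chains. That pattern was held by 1 of the 32 collagen genes and by 13.2% of all genes tested. Plod3 differed by between -0.08 and 0.08.

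Serpinh1 was 11.72, 11.58, 11.70, 12.06 and 11.55 in biopsies and 11.67, 11.49, 11.67, 11.69 and 11.81 in final samples. Its changes were small beside those of the chains it binds, the mean being -0.05 (SE 0.11; limma adjusted p = 0.918). A second Serpinh1 probe set, with a mean of 3.37, was not tested because it lay below the dim cutoff. The median of the 6 intracellular genes was -0.04, with per-tumour medians between -0.10 and 0.08.

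Of the 2 genes of propeptide removal, Pcolce, the enhancer of the C-proteinase, was 8.65, 9.18, 9.20, 9.31 and 9.15 in biopsies and 9.78, 10.07, 8.37, 10.39 and 10.06 in final samples. Each final sample but that of 45D3 lay above all the biopsies and that of 45D3 below them all. On average Pcolce differed by 0.64 (SE 0.30; 1.56-fold; limma adjusted p = 0.647); outside 45D3 the differences lay between 0.90 and 1.13.

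Bmp1, the C-proteinase itself, was 6.86, 8.14, 8.22, 7.76 and 8.10 in biopsies and 7.38, 8.60, 6.99, 8.22 and 7.68 in final samples. The final sample was above the biopsy in 66D2, 67D3 and 49I1 and below it in 45D3 and 51I1, with a mean difference of -0.04 (SE 0.28; limma adjusted p = 0.974). A second Bmp1 probe set differed by 0.24 on average and by 0.28 in 45D3, where the brightest differed by -1.23, so no direction can be given for Bmp1.
The 250 bases before the Pcolce start (GRCr8, chr12:24720722-24720971, plus strand, RefSeq) are shown because Pcolce had the narrowest spread of the genes with that pattern outside 45D3, with a match to GGGCGG on the opposite strand in capitals.
Pcolce: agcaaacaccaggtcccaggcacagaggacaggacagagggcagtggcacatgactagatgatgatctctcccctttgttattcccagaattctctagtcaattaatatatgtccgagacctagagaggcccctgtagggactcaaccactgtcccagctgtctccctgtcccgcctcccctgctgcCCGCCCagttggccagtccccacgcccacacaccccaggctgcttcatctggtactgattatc
The match begins 63 bases before the annotated start, and neither TATAAA nor CCAAT was found in this window.

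The cross-linking oxidases differed among themselves. Loxl1, which acts on elastic fibres and on collagen, was 8.17, 9.45, 10.40, 10.16 and 9.51 in biopsies and 10.38, 10.59, 8.35, 10.82 and 11.09 in final samples. The 45D3 biopsy was the highest and its final sample the lowest of their groups. The mean difference, 0.71 (SE 0.58; 1.64-fold; limma adjusted p = 0.771), was the largest of the 32 genes, and it was 1.40 without 45D3.

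Lox, the principal collagen cross-linking oxidase, was 8.44, 8.80, 9.86, 9.54 and 10.10 in biopsies and 9.99, 9.11, 8.57, 10.18 and 10.23 in final samples. Its difference was largest in 66D2 (1.54), the tumour with the lowest biopsy signal, which itself raises the difference by construction. The mean difference was 0.27 (SE 0.37, limma adjusted p = 0.860). Without 66D2 the mean difference was -0.05. A second Lox probe set had the same sign in every tumour.

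Loxl2, an oxidase of basement membrane collagen, was 8.11, 7.37, 6.30, 7.85 and 8.82 in biopsies and 7.99, 8.67, 7.07, 7.90 and 8.40 in final samples. It was higher in 67D3 and 45D3 and near or below its biopsy in the others, the mean difference being 0.32 (SE 0.26; limma adjusted p = 0.771). In 45D3, where Lox and Loxl1 were lower by over 1, Loxl2 was higher by 0.77. The class median was 0.32, with 1.54, 1.14, -1.29, 0.63 and 0.13 by tumour.

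Beyond these 33 genes, a list of 39 names of other collagen pathway genes had 25 on the array and 15 past the dim filter. Among the 15, 0 passed the adjusted threshold, 1 was higher at an unadjusted p under 0.05 (2.78% of all genes were) and 0 were lower (4.36% of all genes were), and the median difference was 0.06. The single gene was Fkbp10, a peptidyl-prolyl isomerase that assists collagen folding, with a mean difference of 0.24 and a higher final sample in every tumour, as 3.52% of all genes had (limma adjusted p = 0.614). P4ha1, the other main catalytic subunit of prolyl 4-hydroxylase, differed by -0.16, with a range from -0.84 to 0.80 between tumours, and the isomerase Ppib by 0.05. P4ha3, a further catalytic subunit, differed by 0.41, with a wide range from -1.43 to 2.42 between tumours. The prolyl 3-hydroxylases P3h1 and P3h3 differed by 0.22 and 0.25. P3h4 differed by 0.16 and Colgalt1 by 0.06. Of the tested folding and hydroxylation genes on this list, P4ha1 alone had a mean difference below 0.

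In bulk tissue fewer cells of a type and less RNA per cell cannot be told apart, and marker genes of several cell types moved beside the collagen genes. Of the 10 fibroblast markers, all 10 were on the array with group means above the dim cutoff, and 9 were higher in 66D2, 67D3, 49I1 and 51I1 and lower in 45D3. Their median difference was 1.70, 1.16, -0.94, 0.72 and 1.17 by tumour, and their summed linear signal went from 10871 to 4929 in 45D3 and from 2963 to 14203 in 66D2. Over the arrays that sum ran from 2963 to 10871 in biopsies and from 4929 to 20448 in final samples. The decorin gene Dcn differed by 0.93 and the receptor gene Pdgfra by 1.09 on average. The fibroblast markers thus had the order of signs of the fibrillar class in each tumour, and their part in the collagen values was not tested.

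Adipocyte markers (9 of 9 on the array, 5 tested) had a summed signal of 1645 in the 45D3 biopsy and 554 in its final sample. Over the arrays that sum ran from 474 to 1645 in biopsies and from 554 to 10205 in final samples. Adipoq, Plin1, Lep, Cidec and Pck1 had biopsy means under the dim cutoff, and Plin1, Lep and Pck1 were also under it in final samples. The 5 tested adipocyte markers had medians of 0.76, 2.20, -1.98, 0.15 and 5.24 by tumour, also the order of signs of the fibrillar class. In 49I1, however, only 3 of the 5 were higher, so the sign there is weak. Adipoq is among these 5, so the sizes are not exact. Endothelial markers (7 of 8 on the array, all tested) had medians of 1.20, 0.68, -0.90, -0.16 and 1.58 and sums from 726 to 1964 in biopsies and 1064 to 3021 in final samples. The part of either list in the collagen values was not tested.

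Skeletal muscle markers (10 of 11 on the array) had summed signals of 1513 to 2837 in biopsies and 1842 to 41617 in final samples. Most of each biopsy sum came from Myh1, which differed by 0.11 on average. Its log2 signal was 10.16 to 10.88 in biopsies and 10.34 to 10.91 in final samples. Ckm, Mb, Tnnt3, Myh2, Myh4 and Actn3 were under the dim cutoff in biopsies, and Myh4 also in final samples. Of the 8 tested, Ckm, Mb, Tnnt3 and Actn3 passed the dim filter through the final group alone, so the size of their differences is not exact and no order of tumours is read from them. The summed final signals, in the usual tumour order, were 11600, 41617, 2851, 4662 and 1842. The part of these markers in the collagen values was tested no further than by a covariate, which itself rests in part on signals under the cutoff. The muscle median lay between 4.01 and 5.01 in biopsies and between 4.42 and 11.43 in final samples, higher in each final sample than in its biopsy. It is thus partly tied to the groups, and directions turned under it are not read as effects. With it as a covariate, which leaves 3 residual degrees of freedom, Col1a1 differed by -0.64 and Col1a2 by -0.40, while Col4a1 differed by 0.59 and Pcolce by 0.25. The fibrillar median was then -0.27 and the type IV median 0.52. With the hexokinase difference as a covariate the fibrillar median was 0.64, the type VI median 0.87 and the type IV median 0.38.

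Markers of luminal epithelium (8 of 8 on the array, with Esr1 under the dim cutoff) had summed signals of 28286 to 38746 in biopsies and 28281 to 37528 in final samples. Myoepithelial and smooth muscle markers (8 of 8, Oxtr being under the cutoff in final samples) had sums of 10284 to 27336 and 14731 to 24364. Macrophage markers (5 of 7, none under the cutoff) had sums of 823 to 2064 and 1019 to 3969. None of these 3 lists had the order of signs of the fibrillar class over the 5 tumours.

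**Figure D3:**
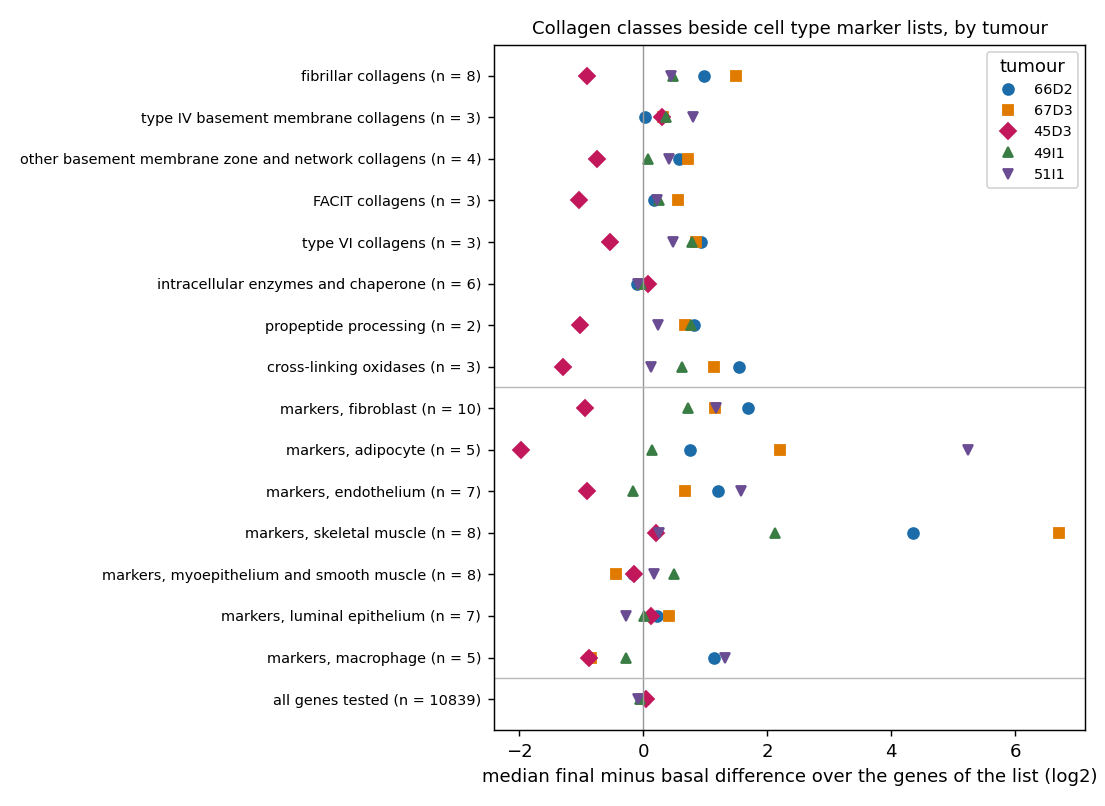
Median final minus basal difference of each collagen class, of 7 cell type marker lists and of all genes tested, with a symbol for each tumour. The fibrillar and fibroblast medians of 45D3 lie at -0.91 and -0.94 and those of the other tumours above 0, while the type IV medians lie between 0.03 and 0.80. Differences of the skeletal muscle and adipocyte lists include markers under the dim cutoff in biopsies and are not exact in size.

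**Figure D4:**
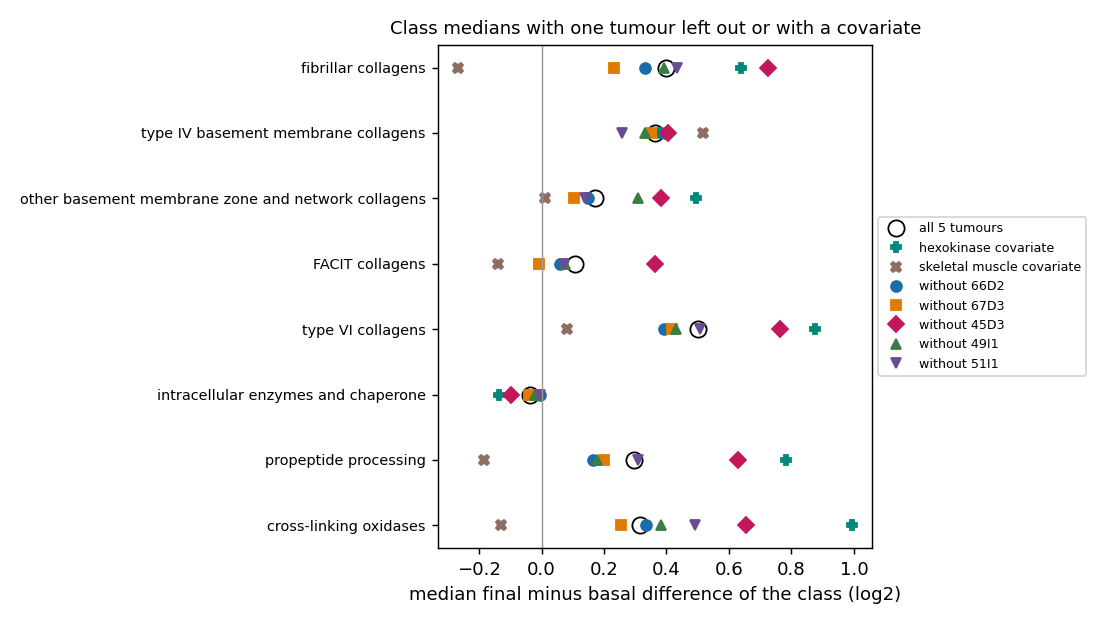
Median difference of each collagen class with all 5 tumours, with each tumour left out in turn and with a covariate. Leaving out 45D3 moves the fibrillar median from 0.40 to 0.73 and the type VI median from 0.50 to 0.76, and the skeletal muscle covariate moves them to -0.27 and 0.08, whereas the type IV median stays between 0.26 and 0.52. The skeletal muscle covariate rests in part on signals under the dim cutoff and is partly tied to the groups.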

How the data were processed

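The 10 tumour samples (5 pairs) were measured on Affymetrix rat expression arrays, per the labels. RMA was run by the authors, per the submitters' processing notes; the method corrects background, normalises quantiles and summarises each probe set. Its version was not found in any source. The deposited values are taken as log2 signals, from their range and their near-equal medians. RMA compresses differences of dim signals. The labels number basal and final arrays in separate runs of codes, so any order of processing cannot be told apart from the groups.

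The table held 31099 probe sets, 57 of them controls. The platform annotation of 2016 gave 1 symbol to 20826, and all 33 member symbols matched RefSeq by gene ID. Leaving out the dimmest 40% by mean signal gave 18625 probe sets and 10839 genes. Differences were fitted over all of them with limma 3.58.1 in R 4.3.3 (lmFit, eBayes, 4 residual degrees of freedom), with the tumour as a block since both samples of a tumour carry 1 identifier; Benjamini-Hochberg adjustment ran over all 18625. In the values, the same-tumour deviations correlated at 0.72, 0.47, -0.16, 0.29 and 0.17 across probe sets, in the tumour order of the text. P-values measure the spread between these tumours, and the number of arrays limits the precision. The fit was tested on simulated data.

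The members, classes and lists were chosen with earlier results of these data known. The rule for named genes gives every member. Each array's value is given for 16 preset genes and for the gene with the smallest p in each class. Other pathway genes are named at an unadjusted p under 0.05, and markers up to 3 a list or where dim. P4ha1, P4ha3, P3h1, P3h3, P3h4, Colgalt1 and Ppib were added outside this rule after their values were seen. Alternatives varied the block, test, filter, normalization, probe set, weights, tumours and covariates.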

Additional observations from a re-analysis of the deposited data

Results flagged for a closer look

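Signals and differences were screened for a tumour far from the other 4, its gap to the nearest being over 0.71 of the whole range, in 108 groups of 5 values, of which chance flags about 1 in 20 (5.4); 16 were found. Tumour 45D3 was the outlying tumour in 13 of them. In the final samples its signal was 10.43 for Col1a2 (others 12.55 to 13.37), 7.46 for Col8a1 (9.35 to 10.06), 11.31 for Col14a1 (11.74 to 11.90), 7.68 for Col16a1 (8.96 to 9.24), 8.74 for Col6a3 (10.43 to 10.95) and 8.35 for Loxl1 (10.38 to 11.09). Its final minus basal difference was -1.43 for Col3a1 (others 0.73 to 1.43), -0.51 for Col5a2 (0.31 to 0.60), -1.30 for Col8a1 (0.67 to 1.43), -0.83 for Pcolce (0.90 to 1.13) and 0.76 for Plod1 (-0.16 to -0.10). The median difference of 45D3 was -0.39 over all 32 genes (others 0.29 to 0.52) and -1.04 over the FACIT chains (0.18 to 0.56). The genes share samples, so these are not separate pieces of support.

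Outside 45D3, the final signal of Col2a1 in 67D3 was 10.11 (others 10.82 to 11.09), the basal signal of Col4a5 in 51I1 was 8.91 (9.72 to 9.93) and the basal signal of Pcolce in 66D2 was 8.65 (9.15 to 9.31).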

How the results depend on the processing

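Over 17 alternative settings 0 collagen genes passed the adjusted threshold in any, and the smallest adjusted p of the 18 genes given with every array was 0.097. Without the replicate block the median difference over the 32 genes was 0.23, equal to the paired fit by construction, since every tumour has both samples. With or without the block 0 of these genes passed. The count of genes higher in every final sample, 1 with all tumours, was 0 after median centring, 2 with the mean of all probe sets of a gene, and between 1 and 14 with a tumour left out, reaching 14 without 45D3. It could not be given for settings that change the model alone. The median over the 32 genes ran from 0.15 to 0.38 with a tumour left out and was -0.04 under the skeletal muscle covariate. That covariate rests in part on signals under the dim cutoff and is partly tied to the groups, so directions turned under it are not read as effects. Under the hexokinase covariate the median of the intracellular enzymes was -0.14. Changing the block, the test or the dim filter alone leaves each gene's difference as it was, so those settings could not turn a direction. Of 304 gene values, those settings included, 284 kept their direction and 20 did not. Under the skeletal muscle covariate these were Col14a1 (-0.14), Col1a1 (-0.64), Col1a2 (-0.40), Col3a1 (-0.14), Col6a3 (-0.18), Col8a1 (-0.053), Lox (-0.22), Loxl2 (-0.13) and Serpinh1 (0.030); under the hexokinase covariate Bmp1 (0.37) and Loxl2 (-0.14). Bmp1 was 0.10 with the mean of its probe sets and 0.21 with array weights. With a tumour left out Bmp1 ran from -0.18 to 0.25, Lox from -0.054 to 0.65, Plod2 from -0.30 to 0.01 (0.00525 at its highest), Col14a1 from -0.01 (-0.00815) to 0.20, Serpinh1 from -0.13 to 0.027 and P4ha2 from -0.28 to 0.10. The cause was not tested.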
